A study of Homo sapiens with 46 samples.

Results

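The 26S proteasome subunit genes described here are the 38 genes whose symbol is PSMA, PSMB, PSMC or PSMD followed by a number, out of 21183 Ensembl genes listed in any of 4 deposited count tables. They comprise 18 genes of the catalytic core (PSMA, PSMB) and 20 of the regulatory particle (PSMC, PSMD), and 35 of them (15 core, 20 regulatory) are in all 4 tables. Of these, 37 are listed for hPSC, 38 for ectoderm, 35 for endoderm and 36 for mesoderm. Members were found by symbol alone, with no measured value used in the match, but the members and lists were chosen with earlier results of these data known. Transcripts of a gene were summed to 1 count per gene and library.

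RNA was sequenced from fractions of H1 cells, an established line of human pluripotent stem cells (hPSC), kept undifferentiated or collected at day 5 of differentiation into ectoderm, endoderm or mesoderm. Endoderm was made with WNT3A and Activin A, mesoderm with VEGF, BMP4, bFGF and Activin A, and ectoderm with the inhibitors A83-01, PNU-74654 and Dorsomorphin. Each cell type was separated into cytoplasm and nucleus, and nuclei also into nucleoplasm and chromatin, in buffers that held the RNA polymerase inhibitor α-amanitin. The series' design text speaks of cells given actinomycin D, a transcription blocker, which no sample label or protocol used here names, so whether these libraries had it is not known. There were 3 libraries for each of 15 groups and 1 for mesoderm nucleoplasm, 46 in all, every one from the single line H1. The labels do not say whether libraries of a group came from separate cultures, so every p-value measures the spread between these libraries only. Each cell type has a table built on its own transcript assembly, so in any comparison of a lineage with hPSC the assembly and the cell type cannot be told apart.

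The 26S proteasome is the protease that degrades ubiquitin-tagged proteins in the cytoplasm and the nucleus. Its barrel-shaped core is made of rings of PSMA (alpha) subunits, which gate entry, and PSMB (beta) subunits, of which PSMB5, PSMB6 and PSMB7 carry the peptidase sites. The regulatory particle binds ubiquitin chains, unfolds the substrate with the PSMC ATPases and feeds it into the core. PSMB8, PSMB9 and PSMB10 replace the catalytic subunits in the immunoproteasome, and PSMD5, PSMD9 and PSMD10 are assembly chaperones rather than subunits of the finished particle. Pluripotent cells are known for high proteasome activity, and the subunit genes share a transcriptional regulator, NFE2L1 (NRF1).

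Total counts over all transcripts, those without an Ensembl gene included, ran from 4990408 to 21298678 per library. No pair of libraries within a group agreed within sampling noise. The fraction labels did not match the usual location of every control RNA. MALAT1, a nuclear-retained RNA, was higher in the cytoplasm libraries than in the nucleus libraries of hPSC (log2 change 1.45, edgeR adjusted p = 0.000116) and of ectoderm (3.09, adjusted p = 0.00017), with values of -0.63 (adjusted p = 0.231) in endoderm and -0.78 (adjusted p = 0.0492) in mesoderm. Mitochondrially encoded genes took 13.1 to 15.3% of counts in hPSC nucleus libraries against 0.399 to 0.615% in the cytoplasm. The order was the same in ectoderm (8.15 to 10.2% against 0.936 to 1.58%) and endoderm (8.09 to 16.1% against 0.423 to 0.460%). In mesoderm it was the reverse, at 1.11 to 1.36% against 5.84 to 7.46%. RPLP0, a ribosomal protein mRNA, had log2 changes from nucleus to cytoplasm of 1.56 (hPSC), 0.79 (endoderm), 3.18 (mesoderm) and, in the opposite direction, -0.69 (ectoderm). In the tables the nucleus columns carry the code Nei, which was read as nucleus because every other fraction of the labels has a column code of its own, so each value between cytoplasm and nucleus rests on that reading. Fractions are named below on this basis, each direction between fractions carries this limit, and the part of these control values in the results was not tested.

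Lineage markers were checked in the cytoplasm libraries. Ectoderm held 5 of 6 ectoderm markers (PAX6 at 203 CPM, its counts scaled to the library's total) and 5 of 6 hPSC markers. Of the latter, the pluripotency factor POU5F1 was at 6.22 CPM (2954 in hPSC) and TDGF1 at 0.042 (434), while LIN28A was at 1771 (1919) and SOX2 at 396 (190). Endoderm held 6 of 6 endoderm markers (SOX17 158 CPM) but also 6 of 6 mesoderm markers. Of the latter, GATA4 was at 162, HAND1 at 58.1, KDR at 17.9, MIXL1 at 14.9, PDGFRA at 5.35 and TBXT at 4.94. The hPSC marker POU5F1 was at 1765 in endoderm. Mesoderm held 3 of 6 of its markers, as many as the hPSC table lists: HAND1 was at 132 CPM, PDGFRA at 2.98 and TBXT at 0.13, and MIXL1, GATA4 and KDR were not among its listed genes. POU5F1 stood at 892 there. In these bulk libraries, a change in the share of cells of a type and a change in RNA per cell cannot be told apart.

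In hPSC, proteasome subunit mRNAs were higher in the cytoplasm than in the nucleus in both the core and the regulatory particle. Of 37 members tested, 36 rose in cytoplasm and none fell, where 65.7% of all 13997 genes tested were called in either direction and 35.6% were called higher. A gene counts as called at a Benjamini-Hochberg adjusted p under 0.05 over all genes in edgeR's quasi-likelihood test. The members' median log2 change was 1.31, against 0.11 for all genes. It was 1.31 for the core (17 of 17 called) and 1.31 for the regulatory particle (19 of 20), with 1.43 for the 7 alpha subunits, 1.24 for the 7 constitutive beta subunits, 1.31 for the 6 ATPases and 1.41 for the 8 lid subunits. The 3 base subunits PSMD1, PSMD2 and PSMD4 had a median of 0.56. The member not called was PSMD3, a lid subunit, at 0.14 (adjusted p = 0.219).

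PSMA3, an alpha ring subunit at chr14:58244831-58272012 (hg38, plus strand), had the largest change. Its levels in hPSC, in CPM scaled by the trimmed mean of M values (TMM), were 206, 141 and 127 in cytoplasm and 31.1, 22.2 and 20.6 in nucleus. The groups did not overlap (as for 71.7% of all genes tested) (log2 change 2.68, SE 0.40, adjusted p = 5.91e-05). PSMD14, the lid deubiquitinase that strips ubiquitin from substrates (chr2:161308038-161411717, plus strand), had 130, 123 and 113 CPM in cytoplasm and 33.8, 28.5 and 37.7 in nucleus. That change was 1.87 (SE 0.28, adjusted p = 5.79e-05) with no overlap, although an exon of PSMD14 is overlapped by AC009299.3 on the opposite strand. PSMC6, a base ATPase, had 117, 113 and 99.9 CPM against 33.1, 31 and 29.6, again apart (1.81, SE 0.31, adjusted p = 0.000154).

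The catalytic subunits of hPSC followed at smaller sizes. PSMB6, the caspase-like site, had 375, 257 and 225 CPM in cytoplasm against 103, 72.9 and 93.2 in nucleus (1.67, SE 0.18, adjusted p = 2.78e-06). PSMB7, the trypsin-like site, changed by 1.43 (SE 0.15, adjusted p = 1.78e-06) and PSMB5, the chymotrypsin-like site, by 1.25 (SE 0.12, adjusted p = 1.29e-06). None of these 3 had overlapping groups. The immunoproteasome genes rose as well, from lower levels: PSMB8 by 0.98 (adjusted p = 0.000254), PSMB9 by 1.31 (adjusted p = 0.00421) and PSMB10 by 1.38 (adjusted p = 0.00178). PSMD4, the ubiquitin receptor, rose by 1.08 (SE 0.10, adjusted p = 1.03e-06). Among the chaperones PSMD9 rose by 1.62 and PSMD10 by 1.404, while PSMD5 rose by 0.47 (adjusted p = 0.0181), a call kept in 2 of 6 fits that left out 1 library.

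**Figure D1:**
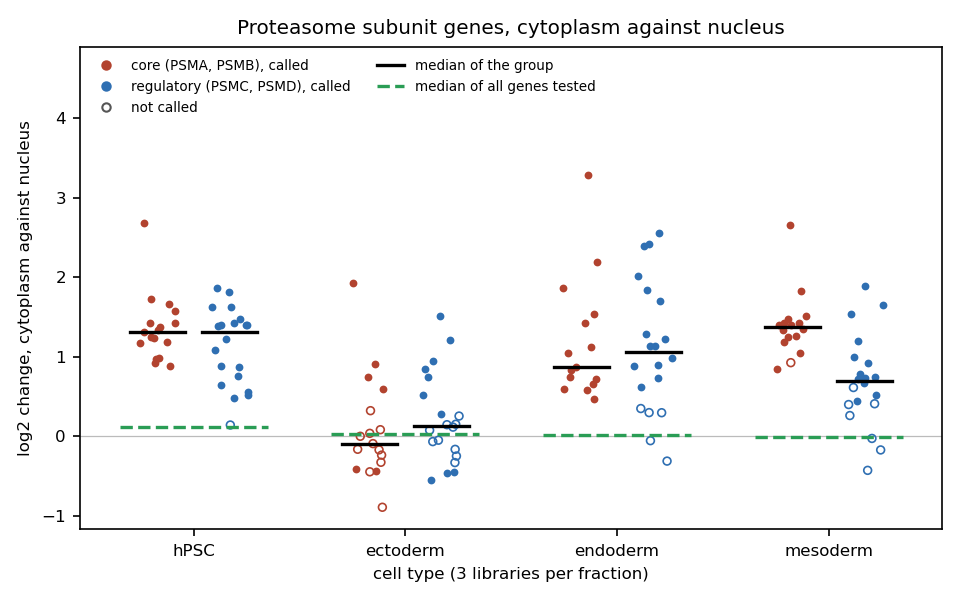
Log2 change of each tested proteasome subunit gene between cytoplasm and nucleus (vertical axis) in the 4 cell types (horizontal axis), 1 point per gene, with core and regulatory particle genes in separate colours, filled points for called genes, black bars at group medians and a dashed line at the median of all genes. In hPSC 36 of 37 points are called, all of them above 0, while in ectoderm the points spread around a median of 0.04.

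In ectoderm the subunit mRNAs did not stand apart from other genes between cytoplasm and nucleus. Of 37 tested members 11 rose in cytoplasm and 5 fell, where 53.5% of all genes were called, and the median was 0.04 against 0.03 for all genes. The alpha subunits (4 of 8 rose, median 0.46) and lid subunits (4 rose and 2 fell of 8, median 0.21) were higher in the list, and the constitutive beta subunits lower (2 of 7 fell, median -0.17). The split of 11 higher and 5 lower depends on scaling: it was 20 and 0 with total counts in place of TMM and 12 and 0 on the authors' TPM. Scaling moved the median of all genes to 0.38 and 0.21 in those fits, and the members' median less that of all genes stayed near 0 (0.02 and 0.07).

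PSMA3 again had the largest rise in ectoderm. It had 77.9, 69.9 and 77.6 CPM in cytoplasm and 19.2, 18.1 and 21.7 in nucleus, with no overlap (1.93, SE 0.11, adjusted p = 2.85e-08). PSMC6 had 76.9, 61.9 and 70.9 CPM against 30.3, 18.2 and 25.9 (1.51, SE 0.16, adjusted p = 7.48e-06). PSMD12, a lid subunit, had 43.1, 40.9 and 42.9 against 27.6, 12.3 and 16.3 (1.21, SE 0.21, adjusted p = 0.000373). For all 3 the groups did not overlap, as for 57.7% of all genes. The falls were smaller and rested on nucleus libraries that differed among themselves.

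PSMD2, a scaffold of the base, had 184, 220 and 183 CPM in ectoderm cytoplasm and 249, 366 and 242 in nucleus (-0.55, SE 0.15, adjusted p = 0.00734). PSMD3 had 144, 161 and 166 against 178, 266 and 203 (-0.46, SE 0.13, adjusted p = 0.0111). In both genes nucleus replicate 2 was the highest library of the 6. PSMD13, a lid subunit whose exons overlap SIRT3 on the opposite strand, had a change of -0.46 (SE 0.12, adjusted p = 0.00745). The peptidase subunit PSMB5 had 139, 157 and 164 CPM against 155, 281 and 189, so its groups overlapped (-0.44, SE 0.17, adjusted p = 0.0378). PSMB6 (0.08), PSMB7 (-0.17), PSMB8 (-0.33), PSMB10 (-0.45), PSMD4 (0.11), PSMD5 (0.25) and PSMD9 (-0.05) did not pass the test. Without nucleus replicate 2 the counts were 16 higher and 3 lower.

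In endoderm 30 of 35 tested members rose in cytoplasm and none fell, where 69.8% of all genes were called and 34.3% were called higher. The median was 0.98, against 0.01 for all genes. Every core gene rose (15 of 15, median 0.87), with the 7 alpha subunits at a median of 1.54 and the 7 constitutive beta subunits at 0.75. Of the regulatory particle 15 of 20 rose (median 1.06). The 5 not called were PSMC3 (0.35), PSMC4 (0.30), PSMD13 (0.30), PSMD2 (-0.06) and PSMD3 (-0.31).

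PSMA3 had 93, 93.2 and 94.1 CPM in endoderm cytoplasm and 4.77, 12.6 and 11 in nucleus (3.29, SE 0.28, adjusted p = 8.2e-08). PSMD14 had 90.4, 90.5 and 88.2 against 8.67, 19 and 17.9 (2.55, SE 0.23, adjusted p = 1.77e-07). PSMD12 had 71.3, 78.1 and 62.7 against 6.39, 17.5 and 15.4 (2.42, SE 0.26, adjusted p = 9.56e-07). The groups did not overlap for any of the 3 (as for 70.9% of all genes), and in each the lowest library was nucleus replicate 1. The peptidase subunits changed less: PSMB6 by 1.04, PSMB7 by 0.87 and PSMB5 by 0.65, all past the threshold. PSMB10 rose by 1.12 (SE 0.32, adjusted p = 0.00601), PSMD5 by 1.22, PSMD9 by 0.98 and PSMD10 by 2.01.

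In mesoderm 28 of 36 tested members rose in cytoplasm and none fell, where 65% of all genes were called and 32.6% were called higher. The median was 1.02, against -0.01 for all genes. Here the core and the regulatory particle differed in size: 15 of 16 core genes rose with a median of 1.38, and 13 of 20 regulatory genes rose with a median of 0.70. On the authors' TPM the split was 1 higher and 7 lower, and the median of all genes there was -0.90. The cause of the changed split was not tested. The members' median less that of all genes was 1.03 in the count test and 0.86 on TPM.

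The largest rise in mesoderm was in PSMB10, the trypsin-like site of the immunoproteasome (chr16:67934502-67937087, minus strand, overlapped on the same strand by AC040162.1). It had 5.74, 9.57 and 8.86 CPM in cytoplasm and 1.52, 1.7 and 0.61 in nucleus (2.66, SE 0.44, adjusted p = 0.000326), from as few as 6 counts in a nucleus library. PSMD9, which overlaps WDR66 on the same strand, had 33.9, 38.2 and 41.2 CPM against 9.05, 11.7 and 9.97 (1.89, SE 0.29, adjusted p = 0.000197). PSMB6 had 116, 123 and 129 against 33.4, 34.8 and 35.8 (1.83, SE 0.27, adjusted p = 0.000143). None of the 3 had overlapping groups, as for 78.8% of all genes. PSMB5 rose by 1.52, PSMB7 by 1.47 and PSMD10 by 1.66. The genes that led in the other cell types moved less here: PSMA3 had 76.9, 97.5 and 94.3 CPM against 44.9, 50.3 and 54.1 (0.85, SE 0.16, adjusted p = 0.000744), PSMD14 rose by 0.92 and PSMC6 by 0.72, of which the values on TPM were -0.22 and -0.40. The values not called were PSMB8 (0.93, adjusted p = 0.053), PSMC2 (0.26), PSMC3 (0.61), PSMD1 (-0.43), PSMD2 (-0.17), PSMD3 (-0.03), PSMD5 (0.40) and PSMD13 (0.41).

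The order of the 35 shared members by this change was most alike between ectoderm and endoderm. Across these 35 genes, which share libraries and are not independent replicates, Spearman's rho was 0.90 between ectoderm and endoderm, 0.73 between hPSC and endoderm and 0.67 between hPSC and ectoderm. With mesoderm it was 0.43 for hPSC, 0.06 for endoderm and -0.07 for ectoderm. Over the 10400 genes tested in all 4, rho was 0.70 between ectoderm and endoderm, 0.80 between hPSC and endoderm and 0.46 between hPSC and ectoderm, and with mesoderm 0.83 for hPSC, 0.69 for endoderm and 0.29 for ectoderm. PSMA3 ranked 1 of 35 in hPSC, ectoderm and endoderm and 21 in mesoderm. PSMB10 ranked 1 in mesoderm, 17 in hPSC, 16 in endoderm and 32 in ectoderm.

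**Figure D2:**
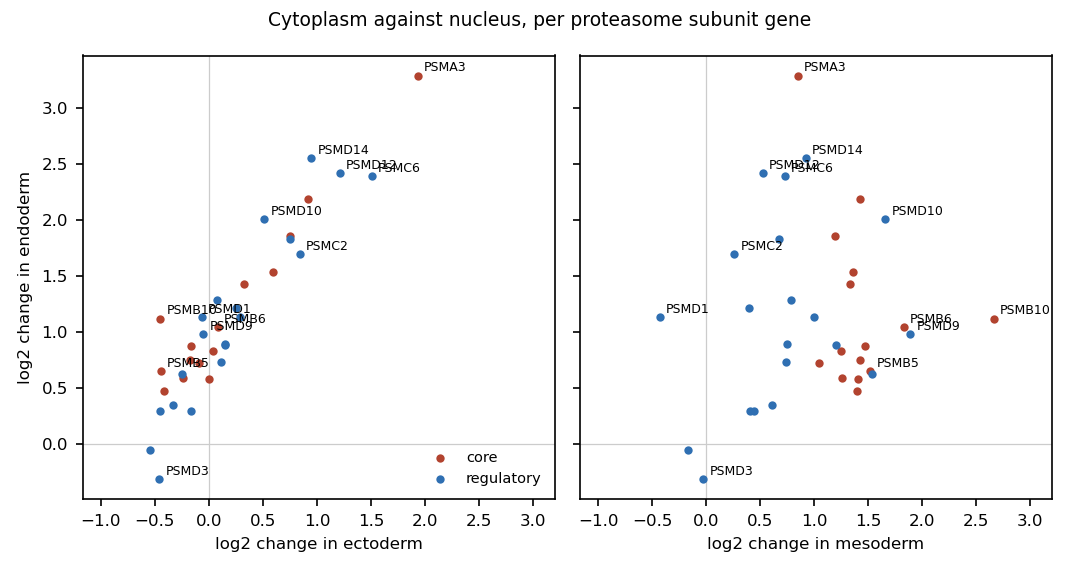
Log2 change between cytoplasm and nucleus of each of 35 proteasome subunit genes in endoderm (vertical axis) against the same change in ectoderm (first panel) or mesoderm (second panel, both on the horizontal axis), with core and regulatory particle genes in separate colours. The points follow a rising line for ectoderm (Spearman's rho 0.90) and scatter without one for mesoderm (0.06).

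Within the nucleus, subunit mRNAs were lower in chromatin than in nucleoplasm in each of the 3 cell types that could be tested. In hPSC 19 of 37 members fell and none rose (30.6% of all genes called, 13.5% lower), with a median of -0.35 against -0.01. In ectoderm 25 of 37 fell and none rose (43.2% called, 21.7% lower), with a median of -0.52 against -0.02. In endoderm 29 of 35 fell and none rose (53.6% called, 30.7% lower), with a median of -1.05 against -0.12. Core and regulatory medians were -0.38 and -0.33 in hPSC, -0.66 and -0.50 in ectoderm, and -1.26 and -0.88 in endoderm. The TPM scale put the median of all genes 0.41 to 0.52 above 0 and gave 9 higher and 1 lower in hPSC, 3 and 1 in ectoderm, and 1 and 17 in endoderm. Relative to all genes the members' median stayed below 0 on TPM, at -0.26, -0.51 and -0.85.

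In hPSC the largest fall was in PSMA3, with 96.4, 89.3 and 90.1 CPM in nucleoplasm and 49.3, 53 and 11.9 in chromatin (-1.27, SE 0.38, adjusted p = 0.0243). Chromatin replicate 3 stood apart at 11.9, and without it the change was -0.92. PSMD12 (101, 86.5 and 107 CPM against 58.9, 62.9 and 22.2) and PSMC6 (96.5, 76.4 and 89.7 against 54.5, 56.4 and 17.6) had the same low library. Their changes were -1.03 (SE 0.28, adjusted p = 0.0149) and -1.03 (SE 0.30, adjusted p = 0.0203), and -0.77 and -0.73 without that library. The groups of these 3 genes did not overlap, as for 53.3% of all genes. PSMD10, a chaperone of the base, changed by -1.002 (SE 0.16, adjusted p = 0.000683), and PSMB5 by -0.35 (adjusted p = 0.0444), a call kept in 2 of 6 fits with a library left out. The count of 19 fell to 9 without nucleoplasm replicate 1 and to 7 without nucleoplasm replicate 3.

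In ectoderm the largest falls were in other members. PSMB3, a beta subunit without a peptidase site, had 44.1, 46.8 and 39 CPM in nucleoplasm and 20.8, 20.1 and 20.7 in chromatin (-1.07, SE 0.14, adjusted p = 7.17e-05). PSMD1, a scaffold of the base, had 83.9, 106 and 92.5 against 50.1, 45.2 and 45.2 (-1.01, SE 0.11, adjusted p = 2.12e-05). PSMA2, an alpha subunit that overlaps MRPL32 and has a pseudogene in the tables, changed by -0.96 (SE 0.11, adjusted p = 2.93e-05). The groups of the 3 did not overlap, as for 61.2% of all genes. PSMB6 changed by -0.92, PSMB7 by -0.72, PSMB5 by -0.66, PSMD14 by -0.79, PSMD4 by -0.53 and PSMD10 by -0.92, all past the threshold.

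In endoderm PSMA2, PSMD1 and PSMA3 led. PSMA2 had 80.9, 83.5 and 93.3 CPM in nucleoplasm and 37.6, 25.9 and 20.9 in chromatin (-1.61, SE 0.21, adjusted p = 1.58e-05). PSMD1 had 143, 165 and 143 against 48.6, 56.1 and 48.6 (-1.55, SE 0.13, adjusted p = 1.55e-07). PSMA3 had 40.9, 40.4 and 36.1 against 17.8, 12.3 and 10.5 (-1.53, SE 0.26, adjusted p = 0.000183). None of these groups overlapped, as for 68.6% of all genes. PSMB6 fell by 1.49 on the log2 scale, PSMD14 by 1.48, PSMB7 by 1.26, PSMD10 by 1.21, PSMB5 by 1.12, PSMD4 by 0.90, PSMD9 by 0.88 and PSMD5 by 0.54. PSMB10 was at -0.62 and did not pass (adjusted p = 0.168). Whether these falls differ between cell types was not tested.

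Lineages were compared with hPSC within each fraction, over genes present in all 4 tables, and the 3 lineages share the hPSC libraries. In cytoplasm 34 of 35 members fell in ectoderm and none rose, where 75.9% of all 10679 genes were called and 37.9% were called lower. Their median was -1.11, against 0.01 for all genes, with -1.26 in the core and -0.99 in the regulatory particle. In mesoderm 32 fell and none rose (68% called, 33.4% lower), with a median of -0.77 against 0.00. The call of PSMC1, an ATPase that overlaps NRDE2 and has a pseudogene in the tables, turned there, from -0.69 (adjusted p = 3.9e-06) to 0.65 on TPM (limma adjusted p = 0.0013), and is named because of that turn. In endoderm 15 fell and 1 rose (58.1% called, 28.6% lower), with a median of -0.27 against 0.00. There 10 of 15 core genes fell (median -0.49) and 5 of 20 regulatory genes (median -0.13). On TPM the endoderm split was 3 higher and 3 lower. The member not called in ectoderm was PSMD10, at 0.06.

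PSMB10 had the largest fall in the cytoplasm of all 3 lineages. Scaled over all 4 tables together, it had 33.5, 19.2 and 13.5 CPM in hPSC, where replicate 1 was the highest. In ectoderm it had 2.67, 2.62 and 2.64 CPM (-3.03, SE 0.30, adjusted p = 2.78e-07), in endoderm 11.3, 10.2 and 11 (-0.997, SE 0.26, adjusted p = 0.00455), and in mesoderm 5.85, 9.65 and 8.81 (-1.42, SE 0.27, adjusted p = 0.000279). Every lineage library was below every hPSC library. Over all genes the groups did not overlap for 76% in ectoderm, 60.9% in endoderm and 70.8% in mesoderm. PSMB6 had 402, 287 and 252 CPM (hPSC), 119, 137 and 133 (ectoderm), 164, 166 and 204 (endoderm) and 118, 124 and 128 (mesoderm). The PSMB6 changes were -1.27, -0.82 (SE 0.15, adjusted p = 0.000259) and -1.34 (SE 0.15, adjusted p = 1.61e-06), and again no lineage library reached the lowest hPSC library.

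PSMB3 had 278, 215 and 195 CPM in hPSC against 77.7, 84.9 and 87.8 in ectoderm (-1.46, SE 0.14, adjusted p = 1.47e-07) and 133, 135 and 170 in endoderm (-0.65, SE 0.13, adjusted p = 0.000805). PSMC3, a base ATPase, had 234, 224 and 222 in hPSC against 72.2, 88.9 and 82.8 in ectoderm (-1.48, SE 0.10, adjusted p = 5.41e-09). PSMA5, an alpha subunit, had 249, 181 and 163 against 79, 86.9 and 82.3 in mesoderm (-1.25, SE 0.14, adjusted p = 1.41e-06). These groups stood apart from hPSC. PSMB5 had changes of -0.63 (ectoderm), -0.28 (endoderm, adjusted p = 0.0435) and -0.46 (mesoderm). PSMB7 changed by -1.41 in ectoderm and -0.72 in mesoderm.

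Of the other subunits always described, PSMD4 had cytoplasm changes of -1.26 (ectoderm), -0.38 (endoderm) and -0.82 (mesoderm). PSMD14 changed by -1.22 in ectoderm and -0.84 in mesoderm. The chaperones moved less: PSMD5 changed by -0.87 and PSMD9 by -0.60 in ectoderm, PSMD10 by -0.36 in endoderm, and none of the 3 passed the test in mesoderm. PSMD5 was the 1 member that rose in endoderm, with 35.1, 41.7 and 28.3 CPM against 27.3, 26.4 and 30.5 in hPSC. Those groups overlapped, and the change of 0.32 (SE 0.13, adjusted p = 0.0494) became 0.24 (adjusted p = 0.157) without hPSC cytoplasm replicate 1.

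In the nucleus the members moved in both directions. In ectoderm 6 rose and 8 fell (57.6% of all genes called, 28.9% lower), with a median of -0.21 against -0.01. In endoderm 2 rose and 11 fell (57.4% called, 29.3% lower), with a median of -0.24 against -0.05. In mesoderm 1 rose and 19 fell (54% called, 28% lower), with a median of -0.46 against -0.01. There 13 of 15 core genes fell (median -0.85) and 6 of 20 regulatory genes (median -0.38). These splits depend on scaling. On TPM they were 4 and 17, 0 and 23, and 17 and 3, and with total counts 5 and 11 in ectoderm and 0 and 27 in endoderm. Relative to all genes the members' median was -0.20, -0.19 and -0.45 in the count test and -0.16, -0.22 and -0.35 on TPM. Without hPSC nucleus replicate 1 the endoderm count was 7 (1 higher and 6 lower).

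PSMB5 rose in ectoderm nucleus, with 133, 238 and 162 CPM against 102, 83.8 and 88 in hPSC (0.96, SE 0.23, adjusted p = 0.00296). PSMD9 had 19.4, 32.4 and 19.3 against 14.1, 9.95 and 12.8 (0.96, SE 0.23, adjusted p = 0.00263), and PSMD10 had 38.2, 47.6 and 36.5 against 25.7, 19.5 and 23 (0.84, SE 0.21, adjusted p = 0.00313). The groups of the 3 did not overlap (as for 69.2% of all genes), and ectoderm replicate 2 was the highest in each. PSMB10 fell there (-1.32, SE 0.37, adjusted p = 0.00756), with 2.24, 3.75 and 2.52 CPM against 8.62, 4.78 and 8.24. PSMC2, a base ATPase, had 21.3, 23.4 and 17.8 against 46.5, 35.9 and 40 (-0.97, SE 0.21, adjusted p = 0.00111). Both were below every hPSC library. PSMD12 changed by -0.94 (SE 0.35, adjusted p = 0.0324), a call lost without ectoderm nucleus replicate 2 (-0.67, adjusted p = 0.128).

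In endoderm nucleus PSMA3 had 4.81, 13.4 and 11.6 CPM against 30.2, 20.7 and 19.2 in hPSC (-1.23, SE 0.30, adjusted p = 0.00309). PSMD12 had 6.44, 18.6 and 16.3 against 37.6, 25.6 and 27.5 (-1.13, SE 0.35, adjusted p = 0.0137). PSMA2 changed by -1.10 (SE 0.19, adjusted p = 0.000349). For PSMA3 and PSMD12 the groups did not overlap (as for 64.7% of all genes), and endoderm replicate 1 was the lowest library. The 2 that rose were PSMD9 (0.65, SE 0.23, adjusted p = 0.0273) and PSMD2 (0.58, SE 0.20, adjusted p = 0.0224), and the PSMD2 call was lost without endoderm nucleus replicate 1.

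In mesoderm nucleus PSMA3 went the other way, with 40, 43.9 and 48.6 CPM against 30.2, 20.7 and 19.2 (0.92, SE 0.28, adjusted p = 0.0141), every library above hPSC (73.6% of all genes had no overlap). A large part of these mesoderm PSMA3 counts came from an isoform that matches no Ensembl transcript, whose shares are given below. The part of that isoform in the rise was not tested. PSMB10 had 1.36, 1.48 and 0.548 against 8.62, 4.78 and 8.24 (-2.68, SE 0.42, adjusted p = 0.000136). PSMB6 had 29.7, 30.3 and 32.1 against 99.7, 67.8 and 86.7 (-1.46, SE 0.23, adjusted p = 0.000118). Both sets of mesoderm libraries were below all hPSC libraries. PSMB3 changed by -1.39 (SE 0.22, adjusted p = 0.00015), PSMB7 by -0.72 and PSMB5 by -0.69. On TPM the PSMB5 value was 0.19 and the PSMB7 value 0.17, the opposite sign.

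In chromatin every called member fell in each lineage. In ectoderm 26 of 35 fell (62.9% of all genes called, 32.4% lower), with a median of -0.97 against -0.05 for all genes. In endoderm 30 fell (61.8% called, 33% lower), with a median of -1.14 against -0.07. In mesoderm 19 fell (54.5% called, 27.4% lower), with a median of -0.56 against -0.03, and the TPM split was 1 higher and 7 lower. The mesoderm count was 13 without mesoderm chromatin replicate 2 and 26 without replicate 3. The core had the lower median in all 3: -1.31 and -0.95 for core and regulatory genes in ectoderm, -1.46 and -0.81 in endoderm, and -0.96 and -0.45 in mesoderm.

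PSMB6 in hPSC chromatin had 96.2, 104 and 89.3 CPM. Ectoderm had 39.9, 35.2 and 41.2 (-1.31), endoderm 25, 27 and 18.7 (-2.04, SE 0.27, adjusted p = 2.46e-05) and mesoderm 37.7, 19.4 and 48.9 (-1.45, SE 0.26, adjusted p = 0.000424). The mesoderm libraries spread more widely than the others, and no lineage library reached hPSC. Over all genes the groups did not overlap for 73.9%, 68.5% and 54.8% in the same order. PSMC3 had 114, 131 and 129 CPM in hPSC and 36.9, 34.1 and 35.2 in ectoderm (-1.82, SE 0.23, adjusted p = 1.16e-05). PSMB7 had 89.7, 95.1 and 90.3 against 29.4, 29.1 and 30 in ectoderm (-1.64, SE 0.23, adjusted p = 2.77e-05). PSMB10 changed by -1.62 in ectoderm (SE 0.31, adjusted p = 0.000417) and by -2.77 in mesoderm (SE 0.38, adjusted p = 3.86e-05), the latter from 5 to 10 counts a library. In endoderm PSMA5 changed by -1.79 (SE 0.30, adjusted p = 0.000169) and PSMB3 by -1.75 (SE 0.25, adjusted p = 5.08e-05).

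**Figure D3:**
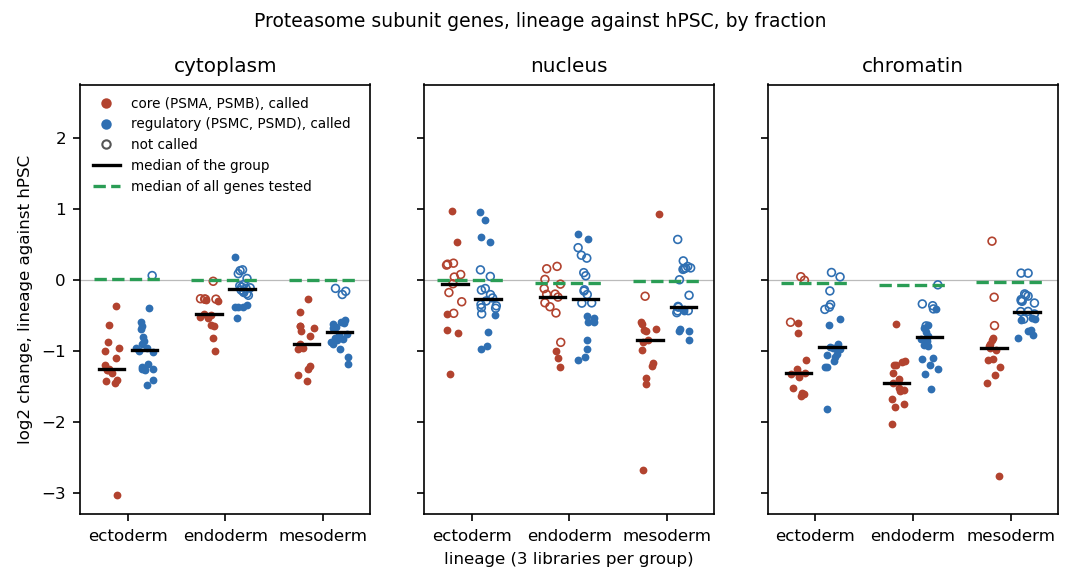
Log2 change of each tested proteasome subunit gene in ectoderm, endoderm and mesoderm against hPSC (vertical axis), in cytoplasm, nucleus and chromatin (panels), with filled points for called genes, black bars at group medians and a dashed line at the median of all genes. In cytoplasm and chromatin every called gene but PSMD5 in endoderm cytoplasm lies below 0, with medians over all members from -1.14 to -0.27, while in nucleus they lie on both sides.

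The difference between cytoplasm and nucleus was itself compared between each lineage and hPSC, with an interaction term over 10687 genes. The count was highest for ectoderm: the cytoplasmic excess was smaller than in hPSC for 26 of 35 members and larger for none (51.9% of all genes called, 24.5% lower), with a median of -0.86 against 0.10. The core median was -1.03 (12 of 15 called) and the regulatory median -0.78 (14 of 20). On TPM 9 were called, all lower. PSMB10 (-1.65, SE 0.48, adjusted p = 0.00623), PSMB5 (-1.52, SE 0.26, adjusted p = 7.61e-05) and PSMD9 (-1.49, SE 0.26, adjusted p = 9.18e-05) led. In hPSC PSMB5 had 270, 223 and 200 CPM in cytoplasm and 106, 90.1 and 94.6 in nucleus, against 139, 157 and 164 and 155, 281 and 189 in ectoderm, where the order of the fractions was reversed in the mean.

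For endoderm 5 members had a larger cytoplasmic excess than hPSC and 1 a smaller (37.9% of all genes called), with a median of -0.20 against -0.03. They included PSMD5 (0.82, SE 0.23, adjusted p = 0.0085), PSMD14 (0.76, SE 0.26, adjusted p = 0.0268) and PSMA4 (0.70, SE 0.27, adjusted p = 0.0437), and the smaller was PSMD8, a lid subunit (-0.68, SE 0.25, adjusted p = 0.038). The split moved with the method: 5 and 5 in DESeq2, 13 and 0 with total counts, 17 and 0 on TPM and 4 and 0 with a replicate block. The count of 6 became 3 without endoderm cytoplasm replicate 2, endoderm nucleus replicate 1 or hPSC nucleus replicate 3, and 12 or 15 without endoderm nucleus replicate 2 or 3. The calls of PSMA4 and PSMD8 were each kept in 5 of 12 fits with a library left out.

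For mesoderm 2 members had a larger and 8 a smaller cytoplasmic excess. Of all genes 25.6% were called, 18.8% higher and 6.89% lower, and the members' median was -0.08 against 0.16. The core median was 0.22 (2 higher, 1 lower) and the regulatory median -0.30 (7 lower). PSMB10 (1.38, SE 0.51, adjusted p = 0.0494) and PSMA7, an alpha subunit (0.61, SE 0.19, adjusted p = 0.0243), were higher, with calls kept in 4 and 7 of 12 fits. PSMA3 (-1.74, SE 0.32, adjusted p = 0.000589), PSMC2 (-1.04, SE 0.21, adjusted p = 0.00116) and PSMD12 (-1.01, SE 0.37, adjusted p = 0.0466, kept in 2 of 12 fits) were lower. On TPM 25 were lower and none higher, and with total counts 16 and none. The count of 10 became 5 without hPSC cytoplasm replicate 3, hPSC nucleus replicate 3 or mesoderm cytoplasm replicate 2 or 3, and 6 without hPSC cytoplasm replicate 2 or mesoderm nucleus replicate 1 or 3.

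Levels were compared between genes on the authors' TPM, a transcript abundance that divides by length. PSMB4, a beta subunit, was the most abundant member in 12 of 16 groups, PSMB1 in 3 and PSMB5 in 1. In cytoplasm PSMB4 had 586, 528 and 528 TPM (hPSC), 268, 216 and 277 (ectoderm), 417, 437 and 494 (endoderm) and 348, 325 and 316 (mesoderm). PSMB4 in hPSC was thus above every library of the 3 lineages, and ectoderm was below every library of the others. At the other end PSMB9, PSMA8, PSMB8, PSMD5 and PSMB10 had median ranks of 37.5, 37, 35, 35 and 33.5 among the members. PSMB2 was the exception among the constitutive beta subunits, with a median rank of 30.5 and a mean of 43.5 TPM in hPSC cytoplasm. PSMA5 in cytoplasm went from a mean of 226.8 TPM in hPSC to 25.2 in ectoderm, while its CPM went from 249, 181 and 163 to 84.9, 85.7 and 86.7, so the 2 scales gave different sizes of fall for this gene.

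Shares of TPM were summed over every member listed for a cell type, not only over the 35 shared ones. The gene sets behind the shares therefore differed, from 35 genes (endoderm) to 38 (ectoderm). Together these members took 0.618% ± 0.0063 (SD, n = 3) of all TPM in hPSC cytoplasm, 0.585% in endoderm, 0.405% in mesoderm and 0.341% in ectoderm. For hPSC, ectoderm, endoderm and mesoderm in that order, the share in the nucleus was 0.364%, 0.276%, 0.256% and 0.432%, the share in nucleoplasm 0.413%, 0.252%, 0.231% and 0.501% (a single library), and the share in chromatin 0.460%, 0.254%, 0.176% and 0.340%. On this scale the members' share was higher in chromatin than in nucleoplasm in hPSC, about equal in ectoderm and lower in endoderm, so the lower chromatin levels above hold relative to the other genes of the count test and not for the share of TPM in hPSC and ectoderm. Mesoderm was the 1 cell type whose nucleus libraries held a larger mean share than its cytoplasm libraries.

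Averaged over members, core subunits had higher TPM than regulatory subunits in every group, although single genes of both parts overlapped in level. The ratio of mean core to mean regulatory TPM was highest in cytoplasm for hPSC, endoderm and mesoderm. With medians over members in place of means the nucleus was above the cytoplasm in endoderm (3.50 against 2.41) and just above it in hPSC (2.823 against 2.818). In cytoplasm it was 2.88 ± 0.459 (SD, n = 3) in hPSC, where replicate 1 stood at 3.403 and the mean without it was 2.62, then 2.37 ± 0.057 (ectoderm), 2.44 ± 0.021 (endoderm) and 2.48 ± 0.073 (mesoderm). The 3 lineages differed from each other in cytoplasm by about their spread, and all were below the lowest hPSC library (2.55) in the mean.

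The mean ratio was lowest in chromatin, at 2.27 ± 0.060 for hPSC, 1.64 ± 0.050 for ectoderm, 1.49 ± 0.099 for endoderm and 1.44 ± 0.171 for mesoderm, so the hPSC libraries (2.21 to 2.33) lay above every lineage library. The nucleus values, in the order hPSC, ectoderm, endoderm, mesoderm, were 2.48 ± 0.150, 2.38 ± 0.096, 2.06 ± 0.056 and 1.50 ± 0.065. The nucleoplasm values were 2.29 ± 0.094, 2.03 ± 0.127, 2.01 ± 0.021 and, for the single mesoderm library, 1.93. With medians over members nucleoplasm (2.35) was below chromatin (2.51) in hPSC, and in CPM the mesoderm nucleus (0.700) was as low as its chromatin (0.701). The hPSC chromatin and nucleoplasm libraries overlapped, as did those of mesoderm chromatin and nucleus. Counted as CPM, which does not divide by length, the ratio was 1.36 in hPSC cytoplasm and 0.647 in endoderm chromatin, the extremes on that scale. These ratios are a description with no test.

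**Figure D4:**
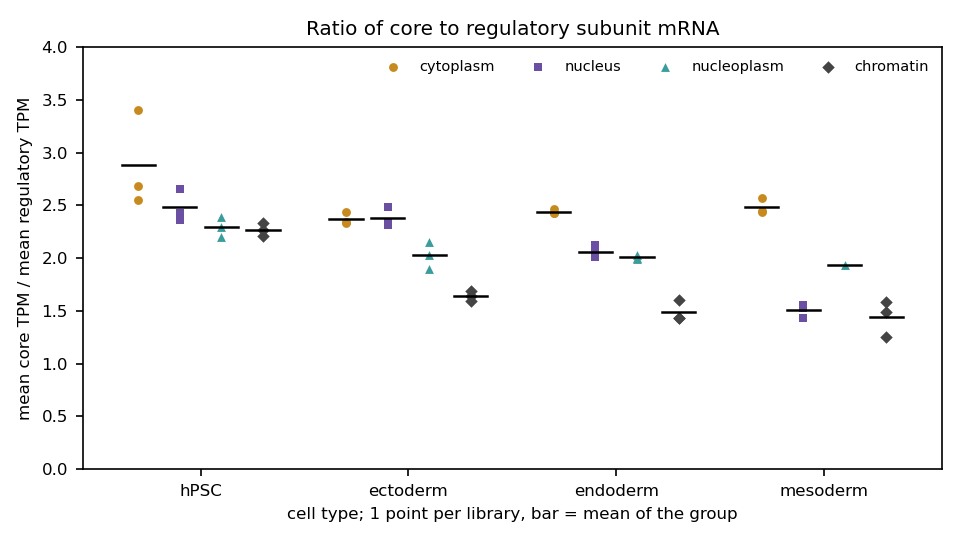
Ratio of the mean TPM of 15 core genes to the mean TPM of 20 regulatory particle genes (vertical axis, from 0) in each library, by cell type (horizontal axis) and fraction (colour), with a bar at each group's mean. Chromatin has the lowest mean in all 4 cell types (1.44 to 2.27), although not in hPSC when medians over members are used, and mesoderm nucleus (1.50) lies near chromatin rather than near the other nuclei.

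The members restricted to certain tissues or induced by interferon were mostly at the low end of the list. In hPSC cytoplasm they were not all the lowest: PSMB10 ranked 27, ahead of PSMB2 at 31, and PSMB8 ranked 33, ahead of PSMD12 at 34. PSMB8 (chr6:32840717-32844703, minus strand) had 29.8, 27.2 and 26.7 TPM in hPSC cytoplasm, 1.25, 2.22 and 3.65 in ectoderm and 5.94, 5.39 and 4 in mesoderm, and it was not listed in the endoderm table. PSMB9 (chr6:32844136-32859585, plus strand), its neighbour, had 12.4, 9.19 and 11 TPM in hPSC cytoplasm and 0 to 0.39 in ectoderm, from at most 3 counts a library, and it did not pass the count filter there. The PSMB8 and PSMB9 loci overlap each other and PSMB8-AS1, so their counts can be mixed. PSMB10 had 90.4, 61.6 and 51 TPM in hPSC cytoplasm, 37.1, 34.1 and 36.1 in endoderm, 9.42, 13.4 and 11.5 in mesoderm and 7.2, 5.96 and 6.21 in ectoderm, an order in which no neighbouring cell types overlapped. PSMB8 and PSMB9 were likewise highest in hPSC among the cell types that list them.

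PSMA8, an alpha subunit known from testis, was listed only in the ectoderm table, with 3 to 19 counts a library and 0.27 to 2.53 TPM, and its change between cytoplasm and nucleus was -0.90 (SE 0.50, adjusted p = 0.143). PSMB11, the thymus subunit, was in none of the 4 tables. Since each table lists only its own assembled transcripts, a gene that is not listed has no value there rather than a value of 0.

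The tables give counts per isoform, and some members had a different mix of isoforms in chromatin. PSMD6, a lid subunit at chr3:64010549-64024010 (minus strand), has an Ensembl transcript with a retained intron, ENST00000476464. In ectoderm that transcript held 9.20% of PSMD6 counts in cytoplasm (7.99 to 10.5 over 3 libraries), 8.94% in nucleus, 24.3% in nucleoplasm (21.4 to 28.1) and 50.8% in chromatin (49.0 to 53.2). The chromatin libraries did not overlap any other fraction, on 294 to 353 isoform counts each. In hPSC the share was 1.14% in cytoplasm (0.554 to 1.99) and 8.14% in chromatin (4.19 to 11.7), and in mesoderm 4.51% (3.38 to 6.17) and 21.3% (7.97 to 39.8), so chromatin was above cytoplasm in every library of each. The endoderm table does not list it. The start of that intron, after the end of a coding exon, reads as follows from GENCODE 29 coordinates on hg38 (chr3:64023215-64023274, minus strand), with the first bases of the intron, the splice donor letters GT, in capitals.
PSMD6 intron start: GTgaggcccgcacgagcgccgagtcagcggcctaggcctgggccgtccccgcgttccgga

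PSMA3 showed a like pattern with an isoform that matches no Ensembl transcript. The PSMA3 changes above sum over all listed isoforms, so in ectoderm and mesoderm they include this one. In ectoderm it held 16.6% of PSMA3 counts in cytoplasm (12.6 to 19.6), 22.1% in nucleus, 45.6% in nucleoplasm (44.1 to 47.7) and 74.7% in chromatin (72.4 to 79.0). In mesoderm it held 12.96% in cytoplasm (11.2 to 14.9), 47.3% in nucleus (46.4 to 48.1) and 60.9% in chromatin (43.5 to 78.2). The single mesoderm nucleoplasm library held 13.2%, within the range of the cytoplasm libraries. Cytoplasm lay below nucleus in every mesoderm library, while the ectoderm nucleus libraries (14.1 to 34.1) overlapped the cytoplasm. In both cell types every chromatin library was above every cytoplasm library. In PSMD12 the unannotated isoform went the other way, with 42.9% in hPSC cytoplasm (28.7 to 59.1) and 8.00% in nucleus (6.02 to 11.6), and 38.2% (34.3 to 43.1) and 7.60% (0 to 22.8) in mesoderm. With Ensembl transcripts alone, the mesoderm change of PSMD12 between cytoplasm and nucleus went from 0.52 to -0.23.

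Other isoforms with a higher share in chromatin than in cytoplasm included ENST00000462957 of PSMB1 in ectoderm (54.1% against 9.66%), ENST00000578570 of PSMC5 in endoderm (24.6% against 0.397%) and ENST00000700294 of PSMD8 in endoderm (33.4% against 1.81%). These 3 were chosen after their values were seen. Counted by class in ectoderm, 9 of 11 isoforms with no transcript in GENCODE 29 had a chromatin share above every cytoplasm library, against 3 of 25 protein-coding isoforms, of which 11 had a cytoplasm share above every chromatin library. In endoderm these counts were 2 of 5 and 6 of 30, in hPSC 2 of 5 and 0 of 22, and in mesoderm 4 of 7 and 2 of 26. For isoforms with another annotation, such as a retained intron, they were 4 of 7 (ectoderm), 2 of 6 (endoderm), 2 of 5 (hPSC) and 2 of 3 (mesoderm). Isoforms of a gene share its counts, so they are not independent, and no test was made.

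**Figure D5:**
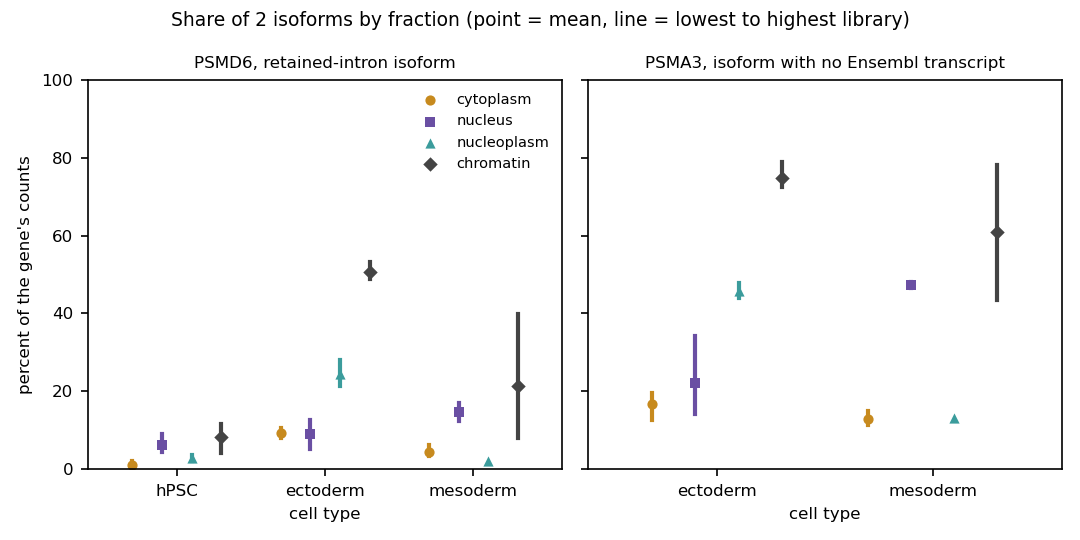
Percent of a gene's counts held by the retained-intron isoform of PSMD6 (first panel) and by the PSMA3 isoform without an Ensembl transcript (second panel) in each fraction and cell type, with a point at the mean and a line from the lowest to the highest library. In ectoderm both shares rise from cytoplasm (9.20% and 16.6%) to chromatin (50.8% and 74.7%).

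Other genes of the pathway were followed through a list of 30, of activators, assembly factors, further particle parts, shuttles, ubiquitin genes and regulators. Between cytoplasm and nucleus 24 rose and 1 fell in hPSC (median 1.01), 12 and 6 in ectoderm (0.15), 22 and 4 in endoderm (0.93), and 20 and 4 in mesoderm (0.76). Of all genes 65.7%, 53.5%, 69.8% and 65% were called in these comparisons, so the 18 of 30 called in ectoderm are near the background. Called higher were 35.6%, 28.7%, 34.3% and 32.6% of all genes. POMP, the chaperone of core assembly, rose in cytoplasm by 2.35 (adjusted p = 5.11e-05), 1.32 (adjusted p = 2.39e-06), 2.80 (adjusted p = 5.09e-08) and 2.33 (adjusted p = 0.000152) in hPSC, ectoderm, endoderm and mesoderm. SEM1, a small lid subunit outside the PSM naming, rose by 2.43, 1.52, 2.21 and 2.85.

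NFE2L1, the transcription factor of proteasome genes, went against the list: it was lower in cytoplasm than in nucleus in all 4 cell types. Its changes were -1.81 (SE 0.11, adjusted p = 1.15e-08), -2.33 (SE 0.12, adjusted p = 1.52e-08), -2.61 (SE 0.21, adjusted p = 4.73e-08) and -2.13 (SE 0.18, adjusted p = 3.51e-06). Against hPSC in cytoplasm NFE2L1 had changes of -1.13 (ectoderm), -0.79 (endoderm) and -1.41 (mesoderm). Of the 30 genes 16, 14 and 15 fell there and 5 rose in each lineage. In all 21, 19 and 20 of 30 were called, near the 75.9%, 58.1% and 68% of all genes called. Of all genes 37.9%, 28.6% and 33.4% were called lower. The activator subunits PSME1 (-1.76, -0.43 and -0.44) and PSME2 (-1.49, -0.91 and -1.20) and the receptor ADRM1 (-1.31, -0.45 and -1.27) were lower in each lineage.

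In the nucleus of ectoderm 12 of the 30 rose against hPSC and 8 fell (57.6% of all genes called, 28.7% higher). All 6 genes of the list that shuttle or extract ubiquitin-tagged proteins were among those that rose, with a median of 1.01. In endoderm nucleus 3 rose and 9 fell (57.4% called, 29.3% lower), and in mesoderm 8 and 16 (54% called, 28% lower). In chromatin 5 and 10, 3 and 19, and 5 and 10 did so in ectoderm, endoderm and mesoderm. Of all genes 62.9%, 61.8% and 54.5% were called there, and 32.4%, 33% and 27.4% were lower. Between chromatin and nucleoplasm 2 rose and 11 fell in hPSC, 5 and 17 in ectoderm, and 3 and 16 in endoderm. The shares of all genes called were 30.6%, 43.2% and 53.6%, with 13.5%, 21.7% and 30.7% lower.

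Because the members fell together in the lineages, their promoters were searched for the core of the antioxidant response element, TGACNNNGC, to which NFE2L1 binds, and for the CCAAT box, CCAAT, on both strands. RefSeq promoter windows (GRCh38.p14, 250 bases before to 50 after a start) were matched for 33 members with 40 windows. TGACNNNGC was in 10 of 40 windows (25.0%) against 4687 of 35116 windows of all genes (13.3%), and CCAAT in 17 of 40 (42.5%) against 12155 (34.6%). The 9 tested genes with TGACNNNGC had a median change of -1.19 in ectoderm cytoplasm against -1.01 for the 21 without it, but -0.90 against -0.97 in ectoderm chromatin, -0.14 against -0.33 in endoderm nucleus and -0.65 against -1.20 in endoderm chromatin, so the order of the medians turned between comparisons. A match is a string of letters and not a measured binding site. The matches of 4 members are shown with 20 bases on each side and the match in capitals, since PSMB3, PSMD12 and PSMD9 are among the genes that led a comparison and PSMB9 is an immunoproteasome gene. The first PSMD9 match and the PSMB9 match are on the strand opposite to the gene. They lie at chr17:38752617-38752665 (plus, PSMB3), chr17:67366714-67366762 (minus, PSMD12), chr12:121888621-121888669 and chr12:121888668-121888716 (plus, PSMD9) and chr6:32854024-32854072 (plus, PSMB9).
PSMB3: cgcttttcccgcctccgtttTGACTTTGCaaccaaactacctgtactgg
PSMD12: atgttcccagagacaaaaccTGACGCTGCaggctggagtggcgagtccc
PSMD9, first match: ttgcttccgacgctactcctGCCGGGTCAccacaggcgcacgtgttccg
PSMD9, second match: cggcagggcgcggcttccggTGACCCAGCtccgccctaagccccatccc
PSMB9: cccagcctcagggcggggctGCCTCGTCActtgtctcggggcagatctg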

How the data were processed

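Gene and isoform counts and TPM (length-scaled transcript abundances) were deposited by the authors for each library, in 1 table per cell type built on that cell type's own transcript assembly. STAR, RSEM and hg38 are named in the submitters' processing notes, with no role or version, so the deposited counts may be rounded estimates. Libraries were made with the NEBNext Ultra kit, per the labels' protocols. The members and lists were chosen with earlier results of these data known. Genes always described were the catalytic, immunoproteasome, tissue-restricted, receptor, deubiquitinase and chaperone members, with up to 3 called members of largest rise and fall per comparison.

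Rows were summed per Ensembl gene. Rows without one held 0.277 to 9.60% of counts and were left out. Tests were edgeR 4.0.16 quasi-likelihood fits with TMM scaling and filterByExpr (minimum count 10), with Benjamini-Hochberg adjustment over all genes at 0.05, in R 4.3.3. Within a cell type 12693 to 15668 genes were tested, and between cell types 10655 to 10687. Mesoderm nucleoplasm (n = 1) entered no fit. Its column carries replicate number 3 where the label has 1, and it was matched as the single library of its group. A further 2 columns, of the same name in the ectoderm count and TPM tables, matched no sample and were not used. Alternatives were total counts, DESeq2 1.42.0, no filter, limma-trend 3.58.1 on log2(TPM + 1) of genes with a mean TPM of at least 1, a replicate block, Ensembl transcripts only, the combined assembly for ectoderm, and leaving out each library. On simulated data with known changes, 2-fold changes were recovered at 72% (cytoplasm against nucleus in hPSC, 13896 genes), 82% (chromatin against nucleoplasm in ectoderm, 15472), 95% (ectoderm against hPSC in cytoplasm, 10662) and 52% (mesoderm difference, 10683). Calls without a planted change were 3.27 to 5.21% of all calls. Changes were planted in well-counted genes only and all other genes were left unchanged. These rates therefore do not cover members with few counts or the wide changes of the real data. Figures were drawn with matplotlib 3.10.9. Exon overlaps and coordinates are from GENCODE 29.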

Additional observations from a re-analysis of the deposited data

Results flagged for a closer look

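Each value here is a log2 difference between a lineage and hPSC in the change from nucleus to cytoplasm, and each was picked out because that difference passed edgeR's interaction test at an adjusted p under 0.05. For ectoderm 26 of 35 members differed (51.9% of all genes called), led by PSMB10 (-1.65), PSMB5 (-1.52) and PSMD9 (-1.49), all with a smaller cytoplasmic excess than in hPSC. For endoderm 6 of 35 differed, a smaller share than the 37.9% of all genes called: PSMD5 (0.82), PSMD14 (0.76) and PSMA4 (0.70) had a larger excess and PSMD8 (-0.68) a smaller. For mesoderm 10 of 35 differed, most with a smaller excess, where 25.6% of all genes were called (18.8% higher and 6.89% lower). PSMB10 (1.38) and PSMA7 (0.61) had a larger excess, and PSMA3 (-1.74), PSMC2 (-1.04) and PSMD12 (-1.01) led those with a smaller. MALAT1 (called in hPSC, ectoderm and mesoderm, not in endoderm) and the mitochondrial share also moved between fractions, and their part in the differences was not tested.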

How the results depend on the processing

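Of 429 calls of a member over the 19 comparisons, DESeq2 kept 426, no count filter 427, the replicate block 411, Ensembl transcripts only 380, total counts 379 and the TPM fit 246, with 4 turned in sign under total counts, 1 with Ensembl transcripts only and 49 on TPM. Replicate numbers did not pair the libraries: correlations of same-numbered libraries ran from -0.430 to 0.403, and in no comparison were all above 0.1. With the replicate block the endoderm difference from hPSC had 4 called. On TPM the counts were 8 (cytoplasm against nucleus, mesoderm), 10, 4 and 18 (chromatin against nucleoplasm in hPSC, ectoderm and endoderm), 6 (endoderm cytoplasm against hPSC), 23 (endoderm nucleus), 8 (mesoderm chromatin) and 9, 17 and 25 (the differences in ectoderm, endoderm and mesoderm). Total counts gave 19 (endoderm chromatin against nucleoplasm), 27 (endoderm nucleus), 13 and 16 (endoderm and mesoderm differences), and DESeq2 gave 10 for the endoderm difference. Leaving out 1 library gave 7 to 21 for hPSC chromatin against nucleoplasm, 7 to 13 for endoderm nucleus and 13 to 26 for mesoderm chromatin against hPSC. It gave 3 to 15 for the endoderm difference and 5 to 8 for the mesoderm difference. Among genes always described or leading a comparison, signs turned on TPM for PSMD4 (-0.41) and PSMD14 (-0.22) in mesoderm cytoplasm against nucleus, PSMB5 in hPSC (0.25) and ectoderm (0.0086), PSMD4 in ectoderm (0.14) and PSMD5 in endoderm (0.093, and 0.084 with total counts) in chromatin against nucleoplasm, PSMB5 in endoderm cytoplasm (0.016), PSMB5 (0.19) and PSMB7 (0.17) in mesoderm nucleus, and PSMD8 (0.061, endoderm) and PSMA7 (-0.20, mesoderm) in the differences. Besides PSMC1 above, some other members turned and were called the other way on TPM. They were PSMC4 in mesoderm cytoplasm against nucleus (0.44 to -0.70, limma adjusted p = 0.0117) and 2 members in mesoderm nucleus against hPSC. The latter were PSMD13 (-0.41 to 0.49, limma adjusted p = 0.00365) and PSMD8 (-0.70 to 0.39, limma adjusted p = 0.0255). The cause of these turns was not tested. TPM and total counts also moved the median of all genes. The core median less the regulatory median became -0.022 without the chaperones and -0.068 on TPM in endoderm cytoplasm against nucleus, -0.62 in mesoderm nucleus and -0.48 in ectoderm chromatin on TPM, and 0.0023 for the endoderm difference without the chaperones. The core to regulatory ratio in chromatin, cytoplasm, nucleoplasm and nucleus was 1.01, 1.36, 1.05 and 1.08 in CPM for hPSC, 0.922, 1.23, 1.05 and 1.14 for ectoderm, 0.647, 1.12, 0.890 and 0.876 for endoderm and 0.701, 1.27, 0.895 and 0.700 for mesoderm. With medians over members it was 2.51 and 2.82 in hPSC chromatin and nucleus, 2.26 and 2.79 in ectoderm cytoplasm and nucleus, 1.64, 2.41, 1.95 and 3.50 in the 4 endoderm fractions, and 2.597 and 1.85 in mesoderm cytoplasm and nucleoplasm. Without the PSMD-named chaperones it was 1.99, 2.03 and 2.18 in hPSC chromatin, nucleoplasm and nucleus, 1.48, 2.17, 1.84 and 2.13 in ectoderm, 1.30, 2.16, 1.76 and 1.79 in endoderm, and 2.26, 1.70 and 1.32 in mesoderm cytoplasm, nucleoplasm and nucleus. Depth limits PSMA8, PSMB8, PSMB9 and PSMB10 most.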
